A study of Mus musculus with 11 samples.

Results

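The Egr and Nr4a immediate early transcription factors were examined in the gingival epithelium of adult langerin-DTR mice. They were taken as the rows of the deposited expression table that carry the gene names Egr1, Egr2, Egr3, Nr4a1, Nr4a2 and Nr4a3. All 6 rows had values, among 19170 genes with values and 55414 genes listed. The members were chosen from results of the comparison described here, so their difference between the groups is a description and carries no test. Langerin-DTR mice carry the diphtheria toxin receptor under the control of langerin (Cd207), a lectin of Langerhans cells (LCs), so that diphtheria toxin (DT) kills langerin-expressing cells of any kind. All 11 mice had this genotype: 6 received DT and 5 received PBS, in both cases by injection at postnatal days 17, 24 and 31. Their epithelium was taken at 8 weeks of age, when LCs had returned, per the study. The comparison asks whether losing LCs around weaning left a trace in the adult epithelium. RNA from each mouse was sequenced, per the labels, as a stranded mRNA library, and the labels do not say whether mice shared a litter or a cage.

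Immediate early genes are switched on within minutes of a signal, by regulators that are already present in the cell and without new protein synthesis. The Egr proteins are zinc finger factors that bind GC-rich sites near the genes they control, and Egr1 is known in keratinocytes for its response to growth factors and wounding. The Nr4a proteins are orphan nuclear receptors: they act without a known ligand, so their activity follows largely from how much of the protein is made. Both families are commonly induced together, through kinase cascades that act on CREB and on serum response factor with its ternary complex partners.

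The bases before the start site are where these signals meet the genes. They are shown, from the RefSeq promoter table (GRCm38.p6), for 4 of 6 members: Egr2, Nr4a1, Nr4a2 and Nr4a3. No window of Egr1 or Egr3 was searched, so nothing is said about matches before these genes. Each line runs 5′ to 3′ on the strand of the gene and ends just before the annotated start site, except Nr4a3, for which the bases that a GENCODE exon covers were left out and 98 remain of 250. Capitals mark matches, on either strand, to the CRE core bound by CREB (TGACG, or CGTCA on the other strand), to the CArG box bound by serum response factor, to an EGR site (GCGNGGGCG) and to TATAAA.
Egr2, chr10:67537619-67537868, plus strand: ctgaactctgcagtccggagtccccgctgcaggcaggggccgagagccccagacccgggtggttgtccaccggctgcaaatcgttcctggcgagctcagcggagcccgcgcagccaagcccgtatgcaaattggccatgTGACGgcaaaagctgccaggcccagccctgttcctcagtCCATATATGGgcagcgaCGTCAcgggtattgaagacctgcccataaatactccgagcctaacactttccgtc
Nr4a1, chr15:101266596-101266845, plus strand: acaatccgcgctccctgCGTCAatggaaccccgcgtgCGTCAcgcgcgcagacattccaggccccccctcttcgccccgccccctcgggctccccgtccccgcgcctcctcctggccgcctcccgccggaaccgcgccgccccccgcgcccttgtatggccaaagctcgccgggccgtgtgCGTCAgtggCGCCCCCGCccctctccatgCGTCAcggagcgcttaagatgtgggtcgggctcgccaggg
Nr4a2, chr2:57124004-57124253, minus strand: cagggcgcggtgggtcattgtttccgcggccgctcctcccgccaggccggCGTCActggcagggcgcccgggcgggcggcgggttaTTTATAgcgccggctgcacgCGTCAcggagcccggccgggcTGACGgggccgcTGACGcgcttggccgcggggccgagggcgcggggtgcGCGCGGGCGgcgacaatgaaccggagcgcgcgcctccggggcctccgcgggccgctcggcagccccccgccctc
Nr4a3, chr4:48045055-48045152, plus strand: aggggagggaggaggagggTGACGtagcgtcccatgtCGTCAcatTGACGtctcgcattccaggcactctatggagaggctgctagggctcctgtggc

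The CRE core was the match these windows shared. Within 250 bases before the start site it stood 2 times for Egr2 and 4 times each for Nr4a1, Nr4a2 and Nr4a3. The fourth of Nr4a3 lies in the bases not shown, inside a GENCODE exon, and 0 coding GENCODE transcripts start at the site used for Nr4a3. Of 32851 promoter windows of the same length, 17.8% held at least 1 CRE core. The CArG box was found only before Egr2 among these 4, at 72 to 63 bases before the start site, and in 1.47% of all windows. Egr2 had 5 windows, of which only the 1 shown, at the start of a coding transcript, was searched for its matches. The EGR site was found once each before Nr4a1 and Nr4a2, and in 4.70% of all windows. TATAAA was found before Nr4a2, on the opposite strand, and in 12.4% of all windows. The full CRE (TGACGTCA, 1.55% of windows), the NBRE that Nr4a proteins bind as monomers (AAAGGTCA, 1.34%) and the AP-1 site (TGANTCA, 6.75%) were not found in any of the 4. A match describes letters in this window and says nothing about binding.

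Values are normalized counts, that is, reads per gene divided by a size factor for each mouse. The depth was 17509330 to 24325520 reads per mouse and overlapped between the groups. Markers of the labelled tissue were abundant: 12 of 12 keratinocyte markers had values, with summed levels of 2552374 to 2639528 normalized counts in PBS mice and 2600627 to 2829681 in DT mice, and none of 10 marker lists passed an adjusted p of 0.05 between DT and PBS mice (exact permutation test, two-sided, adjusted p of 0.346 for keratinocytes and 0.830 or more for the others). Cd207 was low, at 15.8, 18.5, 32.2, 10.0 and 43.0 in PBS 1 to 5 and 18.3, 19.4, 17.1, 18.2, 21.6 and 15.8 in DT 1 to 6. In T cells and innate lymphoid cells, 7 of 9 markers had values, summing to 435 to 567 in PBS mice and 416 to 516 in DT mice, mostly from Thy1. The mitochondrial share of the values was 1.63% to 4.14% in PBS mice and 1.34% to 2.24% in DT mice (two-sided exact permutation p = 0.0173). Its part in the values below was not tested. Library numbers in the sample titles run from 4 to 9 in PBS and from 10 to 15 in DT mice, so an effect of library order and of treatment cannot be told apart. In such bulk samples, fewer cells of a type and less RNA per cell cannot be told apart either.

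The members of each family differed in how far apart the groups lay. Egr1, Egr2 and Nr4a1 had means several times higher in DT than in PBS mice, and in each of them PBS 4 was the only PBS mouse inside the DT range. Egr3, Nr4a2 and Nr4a3 had broadly overlapping values.

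Egr1, by far the most abundant member, had 5383, 3186, 3845, 10360 and 1988 normalized counts in PBS 1 to 5, and 12406, 9450, 12174, 11834, 13904 and 17569 in DT 1 to 6. Every PBS mouse but PBS 4 was below every DT mouse, and PBS 4 was above DT 2. The means were 4952 ± 3262 (SD, n = 5) and 12889 ± 2706 (SD, n = 6), and the log2 difference, DT minus PBS, was 1.58 ± 0.29 (SE), a 2.99-fold higher level. Without PBS 4 it was 1.90 ± 0.21. The SD was 65.9% of the mean in PBS mice, 39.3% without PBS 4, and 21.0% in DT mice.

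Egr2, a factor known for Schwann cell myelination and for restraining activated T cells, was rare. Its values were 5.66, 5.83, 12.1, 24.6 and 5.25 in PBS 1 to 5, and 53.9, 36.3, 22.2, 21.5, 65.7 and 101 in DT 1 to 6. The DT mice were again above the PBS mice except for PBS 4, whose value exceeded those of DT 3 and DT 4. The log2 difference was 2.15 ± 0.43 (SE), and 2.49 without PBS 4. These levels rest on 55 reads summed over the PBS mice (95% Poisson interval 41.4 to 71.6) and 314 over the DT mice (280 to 351), where the intervals cover counting error only.

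Nr4a1, induced by antigen receptor signalling in lymphocytes and by growth factors in many tissues, had 184, 158, 118, 935 and 56.7 normalized counts in PBS 1 to 5, and 1034, 596, 610, 528, 602 and 1342 in DT 1 to 6. PBS 4 stood inside the DT range and above 4 of the 6 DT mice, whereas the other PBS mice lay at 184 or less. The log2 difference was 2.04 ± 0.49 (SE) with all mice. Without PBS 4 it was 2.63 ± 0.30, and the PBS mean went from 290 to 129. The groups then no longer overlapped, which follows from leaving out the only PBS mouse inside the DT range.

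**Figure D1:**
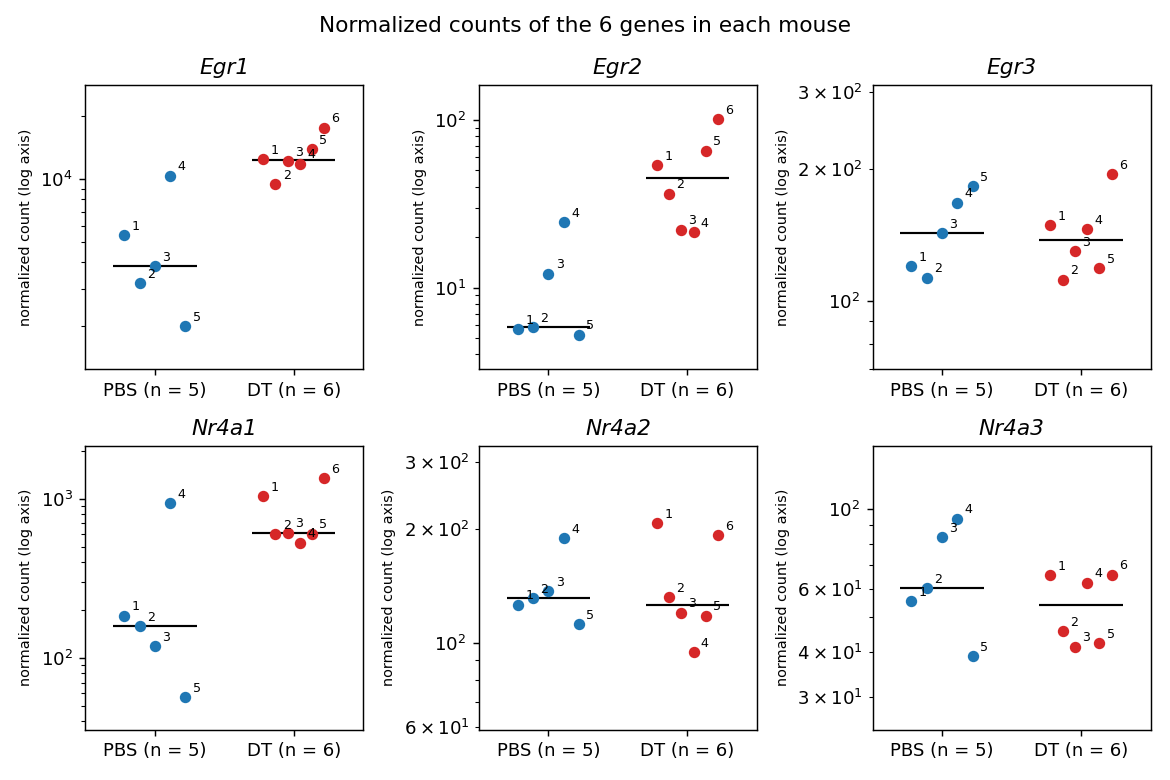
Normalized counts (log axis, 1 point per mouse, numbered by replicate, bar at the median) of the 6 genes in PBS mice (n = 5) and DT mice (n = 6). For Egr1, Egr2 and Nr4a1 the DT points lie above the PBS points except PBS 4, while for Egr3, Nr4a2 and Nr4a3 the groups share their range.

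The other Egr and Nr4a genes gave a different picture. Egr3, which acts beside Egr2 in T cell tolerance and is needed for muscle spindles, had 120, 113, 143, 168 and 183 normalized counts in PBS 1 to 5, and 149, 112, 130, 146, 119 and 195 in DT 1 to 6. The ranges, 113 to 183 in PBS and 112 to 195 in DT mice, nearly coincided, and the log2 difference was -0.04 ± 0.15 (SE).

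Nr4a2, best known for the development and upkeep of midbrain dopamine neurons, had 126, 131, 137, 189 and 112 in PBS 1 to 5, and 207, 132, 120, 94.5, 118 and 192 in DT 1 to 6. The PBS values lay inside the DT range, with PBS 4, DT 1 and DT 6 set above the rest. The log2 difference was 0.02 ± 0.19 (SE).

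Nr4a3, which with Nr4a1 is known to restrain myeloid leukaemia, had 55.4, 60.2, 83.5, 93.8 and 38.8 in PBS 1 to 5, and 65.3, 45.6, 41.3, 62.3, 42.2 and 65.6 in DT 1 to 6. The DT values lay inside the PBS range. The log2 difference was -0.26 ± 0.21 (SE), and -0.12 without PBS 4.

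With all 11 mice, 2 of the 6 members, Egr1 and Egr2, were past the adjusted p of 0.1 in limma in the higher direction, beside 0.313% of all 19170 genes, and 0 members in the lower direction, beside 0.245%. Since the members were chosen from this contrast, nothing is read from the count. Leaving out PBS 4 gave 3 members, with Nr4a1 added, beside 0.558% of all genes in the higher direction and 0.329% in the lower direction. Leaving out PBS 2, DT 5 or DT 6 gave 0, and leaving out PBS 1 or DT 1 gave 1. When each of the 11 mice was left out in turn, the log2 difference was 1.31 to 1.90 for Egr1, 1.91 to 2.49 for Egr2 and 1.63 to 2.63 for Nr4a1, which was 4.10-fold higher with all mice and 6.19-fold without PBS 4. For Egr3 it was -0.13 to 0.05, for Nr4a2 -0.10 to 0.13 and for Nr4a3 -0.44 to -0.12. With all mice, 0 members had every DT value above every PBS value, beside 0.902% of all genes. Without PBS 4 these were Egr1, Egr2 and Nr4a1, beside 1.74% of all genes. PBS 4 was the only PBS mouse inside the DT range for these genes. Leaving it out therefore separates the groups, and nothing is read from that count or from the fits without PBS 4. The median log2 difference of all genes was -0.011.

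**Figure D2:**
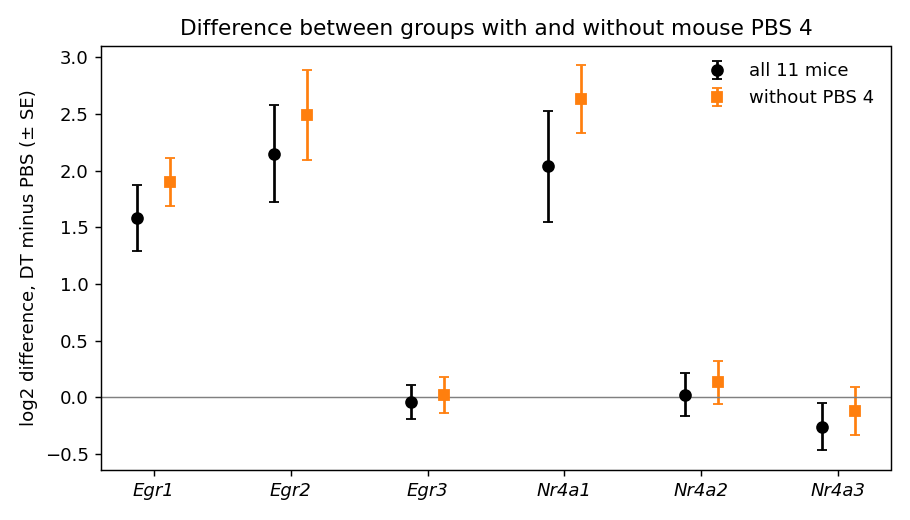
Log2 difference, DT minus PBS, with its standard error for each gene, with all 11 mice (circles) and without PBS 4 (squares). Nr4a1 moves most, from 2.04 to 2.63, and Egr3, Nr4a2 and Nr4a3 stay near 0 in both.

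Levels of different genes were compared per kb of exon, which takes reads to come from the whole transcript, as in the stranded mRNA kit that the labels name. The methods also refer to QuantSeq, a protocol for transcript ends, for which levels per kb would not be comparable. The order of mean log2 levels over the 11 mice was Egr1, Nr4a1, Nr4a2, Egr3, Nr4a3 and Egr2. Egr1 had a mean of 1104 ± 727 (SD, n = 5) normalized counts per kb in PBS mice and 2875 ± 604 (SD, n = 6) in DT mice, above 96.5% and 98.5% of 19117 genes. Nr4a1 had 82.8 and 224 in PBS and DT mice, above 64.7% and 81.8% of genes. Without PBS 4 its PBS mean was 36.8, above 52.2% of genes. Nr4a2, at 34.3 and 35.4, and Egr3, at 33.0 and 32.2, lay near the middle of all genes. Nr4a3 had 11.1 and 8.97, above 38.4% and 37.3% of genes. Egr2 had 3.14 in PBS mice, above 24.8% of genes, and 14.7 in DT mice, above 42.2%.

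Neighbours in that order, which was itself taken from these values, were compared within mice. Egr1 exceeded Nr4a1 in 11 of 11 mice, by 3.94 ± 0.56 (SD) on the log2 scale of levels per kb (two-sided exact sign-flip permutation test, adjusted p = 0.00244), and Egr3 exceeded Nr4a3 in 11 of 11, by 1.64 ± 0.39 (exact adjusted p = 0.00244). Both raw p-values, 9.77e-04, are the smallest that 11 mice can give. Nr4a1 exceeded Nr4a2 in 9 of 11 mice by 1.68 ± 1.30 (exact adjusted p = 0.0114): in 6 of 6 DT mice and in 3 of 5 PBS mice, where the mean difference was 2.59 and 0.59. This pooled p takes in the difference of Nr4a1 between the groups, from which the members were chosen. No general order of this pair is read from it. Without PBS 4, the PBS means per kb were 36.8 for Nr4a1 and 31.2 for Nr4a2. Nr4a2 and Egr3 differed by 0.08 ± 0.34 (exact adjusted p = 0.443), not beyond the spread between mice. Nr4a3 and Egr2 differed by 0.49 ± 1.27 (exact adjusted p = 0.287), but this SD and p also take in the difference of Egr2 between the groups. For the last pair the order was not the same in the groups. Nr4a3 was above Egr2 in 5 of 5 PBS mice and in 2 of 6 DT mice, with mean differences of 1.65 and -0.49.

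The mice of a group differed among themselves in a shared way, which the choice of members did not use. PBS 4 was the highest PBS mouse in 5 of 6 members, all but Egr3, and PBS 5 was the lowest in the same 5. DT 6 was the highest DT mouse in 5 of 6, all but Nr4a2. Of 13477 genes averaging at least 10 normalized counts, PBS 4 was the highest PBS mouse in 23.2%, PBS 5 the lowest in 25.5% and DT 6 the highest DT mouse in 14.9%. In deviations from the group mean, PBS 4 stood at 2.38 on the log2 scale for Nr4a1, 1.37 for Egr2 and 1.29 for Egr1, and PBS 5 at -1.64 for Nr4a1. Egr3 went another way in PBS 5, at 0.35. The 8 LC markers summed to 2383 normalized counts in PBS 4, the lowest of the PBS mice, which reached 5554, and to 1819 to 3464 in DT mice. By group means, most of this sum came from Cd74, H2-Aa, H2-Ab1, H2-Eb1 and Epcam, and little from Cd207. Epcam is also on the keratinocyte list, so the sum is not a measure of LCs alone. The part of these markers in the position of PBS 4 was not tested. Its depth of 22180193 reads was the highest of the PBS mice, and its mitochondrial share of 2.92% lay within theirs.

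**Figure D3:**
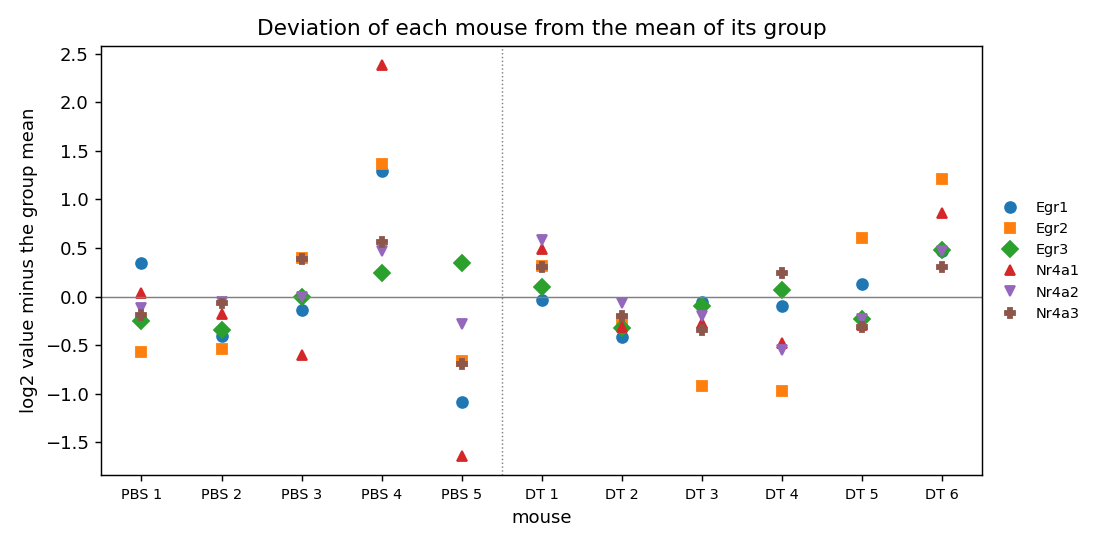
Log2 value of each gene minus the mean of its group, for each of the 11 mice (dotted line between PBS and DT). PBS 4 and DT 6 lie above 0 for all 6 genes, and PBS 5 lies below 0 for all but Egr3.

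Across the 11 mice, with group means removed, all 15 pairs of members had a correlation above 0, from 0.18 to 0.92 with a median of 0.61, and of 0.45 without PBS 4. For Egr1 and Nr4a1 Pearson's r was 0.92 (two-sided exact permutation within groups, p = 0.00277, adjusted p = 0.0207 over 15 pairs) and Spearman's rho 0.81 (exact p = 0.0113, adjusted p = 0.104). For Nr4a1 and Nr4a2 r was 0.74 (exact p = 0.00186, adjusted p = 0.0207) and rho 0.68 (exact p = 0.0208, adjusted p = 0.104). These were the pairs past an adjusted p of 0.05 by r, and 0 pairs passed it by rho. Without the pair of mice farthest from the median, PBS 4 and PBS 5, r was 0.61 for Egr1 and Nr4a1 and 0.82 for Nr4a1 and Nr4a2. Within the 6 DT mice alone the values were 0.68 and 0.92. Egr3 was the least related: its r was 0.18 with Egr1 and 0.23 with Nr4a1 (exact adjusted p = 0.654 and 0.629). These values rested on single PBS mice: they were 0.69 and 0.67 without PBS 5, in which Egr3 was high, and -0.08 and -0.03 without PBS 4. Within the DT mice r was 0.78 and 0.80. Nr4a2 varied with Nr4a1 from mouse to mouse although their differences between the groups were 0.02 and 2.04.

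**Figure D4:**
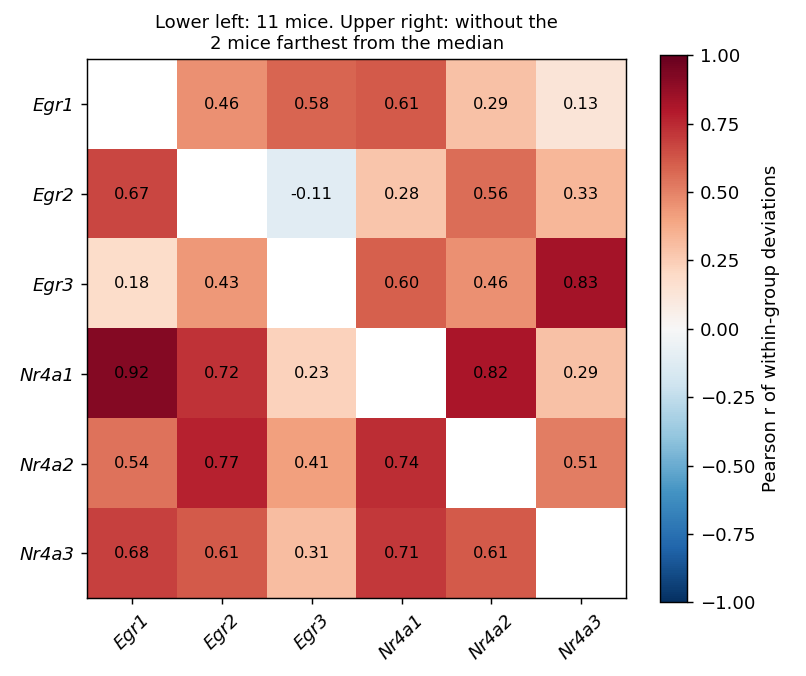
Pearson r between the 6 genes of log2 values minus group means. The lower left uses 11 mice, and the upper right leaves out the 2 mice farthest from the median of the first gene of the pair in the order drawn. All 15 values in the lower left are above 0, with Egr1 and Nr4a1 highest at 0.92, and 14 of 15 are above 0 in the upper right.

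The genes most like each member within groups, by Pearson's r over 11 mice among 13471 other genes, were partly other immediate early genes. For Egr1 these were Fos (r = 0.99) and Jun (0.98), subunits of AP-1, and Gadd45g (0.98), a growth arrest gene. All 3 also rose after DT: Fos by 1.70 on the log2 scale (limma, adjusted p = 0.00897), Jun by 1.11 (0.00897) and Gadd45g by 1.27 (0.0302). For Egr2 they were Slc37a3 (0.92), Purg (0.91) and Csrnp1 (0.91), of which Csrnp1, itself an immediate early gene, rose by 0.66 (adjusted p = 0.0639) and the others differed by 0.02 and 0.18 (0.931 and 0.700). For Nr4a1 they were Shtn1 (0.96), Ccn1 (0.95) and Yod1 (0.95). Ccn1, a secreted matrix protein induced by serum, rose by 1.63 (adjusted p = 0.0782), whereas Shtn1 and Yod1 differed by -0.03 and 0.03 (0.863 and 0.947). For Egr3 they were Il36rn, the antagonist of IL-36 (0.89), C2cd4b (0.89) and Mrps11 (0.86). For Nr4a2 they were Kif2a (0.90), Taf3 (0.89) and Phka1 (0.89), and for Nr4a3 Gm21926, Napepld (0.93 each) and Lsm8 (0.92). None of the genes most like Egr3, Nr4a2 or Nr4a3 was past the threshold, and their log2 differences were between -0.14 and 0.70. These r are descriptions picked as the highest of many.

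Among other immediate early genes, 14 of 22 measured rose after DT and 0 fell in the same fit, beside 0.313% and 0.245% of all genes, with a median log2 difference of 0.72 against -0.011 over all genes. Earlier results of these data were known when the list was written, so this count is not independent of them. The 4 with the smallest p were Ier2, with 2694 ± 389 (SD, n = 5) normalized counts in PBS and 4533 ± 505 (SD, n = 6) in DT mice, Btg2, a brake on proliferation, Junb, an AP-1 subunit, and Dusp1, a phosphatase that turns off MAP kinases. Their log2 differences were 0.75, 0.76, 0.68 and 1.02 (limma, adjusted p = 0.00477, 0.00815, 0.00815 and 0.00832). PBS 4 was the highest PBS mouse in 16 of the 22 and DT 6 the highest DT mouse in 16, the same mice as for the members. The count was 9 without PBS 1, without DT 4 or without DT 5, and 15 without PBS 4.

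Transcription factors and kinases that act on these genes were taken from hand-written lists, which do not hold every such regulator. Of 19 measured upstream transcription factors on the list, 0 passed the threshold with all mice, with a median log2 difference of -0.13. Srf, serum response factor itself, had 950 ± 71.4 (SD, n = 5) in PBS and 806 ± 70.1 (SD, n = 6) in DT mice (log2 difference -0.24 ± 0.07, adjusted p = 0.196), and Elk3, one of its ternary complex partners, 248 ± 48.4 and 182 ± 24.3 (-0.43 ± 0.12, adjusted p = 0.196). By unadjusted limma p under 0.05 there were 5 of 19, beside 2204 of 19170 genes (11.5%). Without PBS 4, Elk3 passed, at -0.51 (limma adjusted p = 0.0996), and its limma adjusted p was 0.192 to 0.409 with any other mouse left out. Of 17 upstream kinases 0 passed, with a median of -0.02 and 1 of 17 at an unadjusted p under 0.05, again beside 11.5% of all genes. The kinases with the smallest p were Mapk7 (ERK5), at -0.18 (limma adjusted p = 0.322), and Rps6ka5 (MSK1), at -0.24 (0.456).

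Of the close relatives and partners 4 of 7 had values and 0 passed, with 1 of 4 at an unadjusted limma p under 0.05 (11.5% of all genes) and a median log2 difference of 0.03. Egr4, Wt1 and Rxrg were listed without a value. The measured ones include Nab2, a corepressor that binds Egr1 to Egr3 and is itself an Egr target. Nab2 had 596, 692, 682, 453 and 800 normalized counts in PBS 1 to 5 and 476, 506, 475, 502, 465 and 513 in DT 1 to 6. It was at or below 513 in every DT mouse and in PBS 4, and at or above 596 in the other PBS mice. The order of the 5 PBS mice by Nab2 was the exact reverse of their order by Egr1, which was noticed after the values were seen. In the DT mice the reversal was not complete, since DT 6 was the highest in both genes. Among DT 1 to 5, DT 5 was the highest in Egr1 and the lowest in Nab2, and DT 2 the other way round. Nab2 spanned only 465 to 513 in DT mice, and this order too was looked at after the values were seen. The log2 difference was -0.37 ± 0.11 (SE) with all mice (limma adjusted p = 0.203) and -0.49 without PBS 4 (0.00423). PBS 4 was the PBS mouse whose value lay with the DT mice, so leaving it out separates the groups and nothing is read from that fit. With any other mouse left out, the limma adjusted p of Nab2 was 0.204 to 0.408. Rxrb, a retinoid receptor, had 957 ± 95.3 and 1045 ± 37.7 (log2 difference 0.13, adjusted p = 0.436).

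Targets described for these factors in other cells were likewise taken from short lists, and genes such as Atf3 that were placed among the immediate early genes were not counted again. Of 18 measured Egr targets on the list 0 passed the threshold with all mice, 3 had an unadjusted limma p under 0.05, beside 11.5% of all genes, and the median log2 difference was -0.09. Arc, an activity-regulated gene with Egr sites in neurons, had 35.1, 16.5, 36.2, 50.1 and 42.0 normalized counts in PBS 1 to 5 and 91.7, 36.3, 51.4, 111, 103 and 223 in DT 1 to 6. All DT mice but DT 2 were above all PBS mice, and the log2 difference was 1.34 ± 0.37 (SE, limma adjusted p = 0.196). Without DT 2, the DT mouse that overlapped the PBS mice, it was 1.59 (limma adjusted p = 0.0836). The limma adjusted p of Arc was 0.126 to 0.401 with any other mouse left out. Of 10 measured Nr4a targets 0 passed, with a median of -0.14 and 1 of 10 at an unadjusted p under 0.05, close to the 11.5% of all genes. This median leans on genes of few counts: among the 6 targets averaging at least 10 normalized counts it was -0.00. The smallest p of the list was that of Ikzf2, a transcription factor known from regulatory T cells, at -0.26 (limma adjusted p = 0.361). Its means were 807 in PBS and 669 in DT mice, beside 5.56 and 3.03 for Cd4, and which cells carried it was not tested. Spp1, osteopontin, was at 5.73 or less in every mouse (log2 difference -0.76, adjusted p = 0.574).

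**Figure D5:**
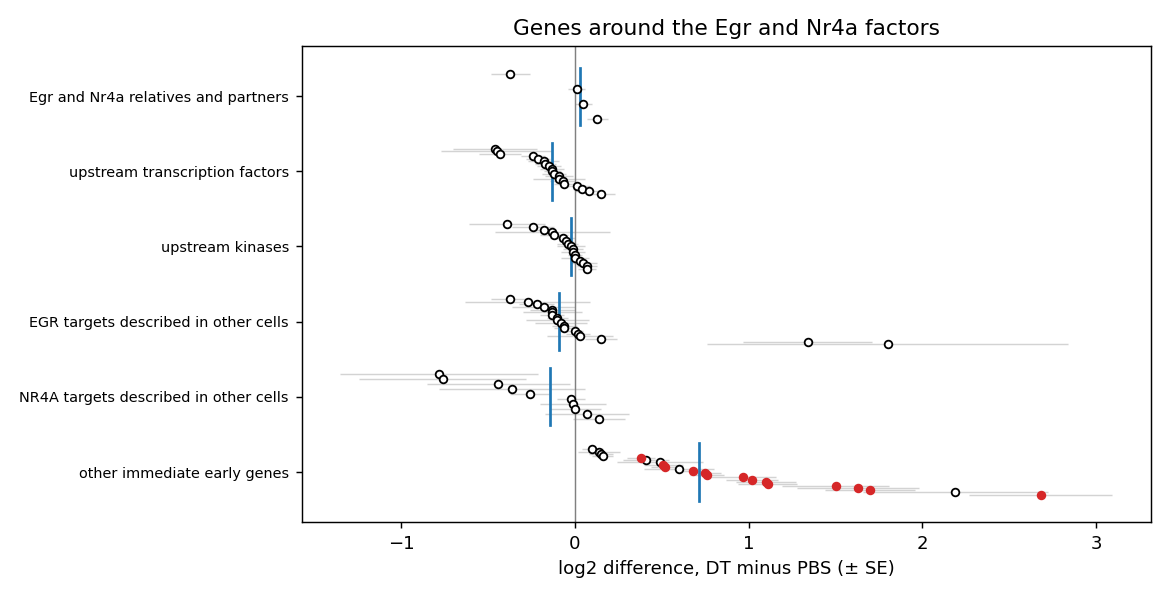
Log2 difference, DT minus PBS, with standard error for each measured gene of 6 lists around the Egr and Nr4a factors (filled red where the adjusted p was under 0.1, blue line at the median of the list). The filled points are all in the list of other immediate early genes, with 14 of 22, and the other lists have medians between -0.14 and 0.03.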

How the data were processed

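Gingival epithelium of 5 PBS and 6 DT langerin-DTR mice was sequenced. Per the submitters' processing notes, the authors trimmed reads with cutadapt 2.10, aligned them with TopHat2 2.1.1, counted them with HTSeq 2.01 and left out genes with under 10 summed reads. The values the authors deposited are DESeq2 1.36.0 normalized counts, treated here as a score per gene and mouse. The methods name GRCm38, a NextSeq and older versions of cutadapt, HTSeq and the normalization package, and refer to QuantSeq guidelines, and the labels name GRCm39, a NovaSeq and a KAPA stranded mRNA kit. How long each tissue was handled before lysis is not given in the sources used here.

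Differences were fitted with limma 3.58.1 (R 4.3.3, intensity trend, 11 mice, no covariate) on log2(normalized count + 1), adjusted by Benjamini-Hochberg over 19170 genes with a threshold of 0.1. Fold changes on this scale understate those of low genes. The limma p-values set a difference against the spread between these mice, moderated across genes. Permutation p-values are shares of the possible rearrangements of these mice. Self-tests on simulated data were run. Single sums were compared by two-sided exact permutation over 462 splits of mice, correlations over 86400 orders within groups. Lengths came from GENCODE on GRCm38 (19117 genes matched). Reads per mouse were recovered from the step of the values to describe depth.

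Members and gene lists were chosen with earlier results of these data known. Named were all members, the 3 genes most alike to each (averaging at least 10 normalized counts), the 4 immediate early genes with the smallest p, genes past the threshold in any other list or else its 2 smallest p, and Cd207. 1 gene of these lists is not reported here. Comparisons of mouse order were picked after their values were seen. Alternatives were other pseudocounts, a filter, TMM scaling, array weights, a replicate block and leaving out each mouse. Leave-one-out for the correlations was added after seeing the data.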

Additional observations from a re-analysis of the deposited data

Results flagged for a closer look

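In the 64 sets of values examined for a mouse far from the others of its group, 4 had one, and chance flags about 1 in 20 such groups. Nr4a1 in PBS 4 was 935 normalized counts, against 56.7 to 184 in the other PBS mice. Spp1 in DT 1 was 5.73, against 0 to 1.75 in the other DT mice. The summed markers of T cells and innate lymphoid cells were 567 in PBS 3, against 435 to 472 in the other PBS mice. The summed endothelial markers were 76.6 in PBS 5, against 112 to 119 in the other PBS mice.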

How the results depend on the processing

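The log2 differences of the 6 members moved by less than the SD between mice pooled over both groups under the alternatives run. Without PBS 4 that of Nr4a1 went from 2.04 to 2.63 and that of Egr1 from 1.58 to 1.90, which is more than the SD of the DT mice alone (0.54 and 0.29). Genes past the threshold numbered 60 higher and 47 lower with all mice, 110 and 79 with array weights, 19 to 155 and 8 to 104 when a mouse was left out (lowest without DT 5, highest without PBS 5, and 107 and 63 without PBS 4). Counts also moved by over 1.5 times without PBS 1 (21 and 8), PBS 2 (24 and 16), DT 1 (39 and 22), DT 3 (32 and 20), DT 4 (27 and 23) and DT 6 (21 and 9). Members past the threshold were 0 to 3, members with no overlap 0 to 3 (3 without PBS 4, 1 without DT 2), other immediate early genes 9 to 15, and regulators, partners and targets 0 to 1 higher and 0 to 3 lower, where Nab2, listed as partner and as target, counts in both. TMM scaling gave 77 higher and 46 lower and moved the median of all genes by about 0.01. The cause of these changes was not tested.

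The fit with the replicate block left out DT 6, which has no partner of the same number. In that fit 24 genes were higher and 12 lower, against 21 and 9 without DT 6 and without the block. Past the threshold were 1 member (Egr1), 9 other immediate early genes and 1 target (Arc, at 1.07). Mice with the same number correlated at -0.23 to 0.32 in their deviations over 13477 genes, and mice with different numbers at -0.32 to 0.28, so the numbers were not taken as pairs. Count-based tests planned on recovered reads were not run, since the values were treated as normalized.

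Depth limits Egr2 most among the members, with 55 reads in all in the PBS mice, while Nr4a1 had the largest standard error, 0.49 against 0.43 for Egr2.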
